A study of Arabidopsis thaliana with 8 samples.

Results

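The genes described here encode the enzymes of the phenylpropanoid, flavonoid and lignin pathways of Arabidopsis thaliana together with regulators of flavonoid and anthocyanin synthesis. They were chosen by locus from a fixed list of 31 genes, of 36799 genes in the count tables, by a rule that names loci and uses no measured value. The list holds 8 genes of the entry steps, 9 flavonoid enzymes, 6 regulators and 8 lignin enzymes. Poly(A) RNA was sequenced from whole seedlings grown in darkness for 3 days on plates with sucrose, in 8 libraries of 4 groups with 2 libraries each. The groups were e1e2 (genotype e1-2-2 e2-2, line #17) in ethylene, e1e2 in air, e2e3 (genotype e2-2 e3-2-2, line #67) in ethylene and e2e3 in air. Ethylene was given at 10 ppm, and the air was free of hydrocarbons. Both are pdc mutants, named for the pyruvate dehydrogenase complex (PDC), with 2 mutant alleles each, and all 4 groups carry e2-2. Each genotype is 1 numbered line, and no wild-type library was analysed here. Nothing in the labels says that the replicates came from separate plantings, and the p-values therefore measure the spread between these samples, which may be technical.

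Phenylalanine ammonia-lyase (PAL), cinnamate 4-hydroxylase (C4H) and 4-coumarate:CoA ligase (4CL) turn phenylalanine into coumaroyl-CoA, the branch point of the pathway. Chalcone synthase (CHS) draws coumaroyl-CoA into flavonoids, such as flavonols and anthocyanins, and hydroxycinnamoyl transferase (HCT) draws it into the monolignols that are polymerised into lignin in xylem and in the Casparian strip of the root endodermis. Flavonol genes are switched on by the related factors MYB11, MYB12 and MYB111, and late anthocyanin genes by complexes of a MYB factor such as PAP1, a bHLH factor such as TT8, and the WD40 protein TTG1.

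Library totals lay between 11522823 and 18601837 counts, and 20193 genes passed the filter on low counts. Of the 31 genes, 27 passed it. Along the third principal component of all genes (5.83% of the variance), replicate 1 of e1e2 in air stood apart from its partner, and results that rest on it are given with and without it. The markers of dark growth were high in every library: PORA, a protochlorophyllide reductase of dark-grown seedlings, lay at 1742 to 1786 CPM in ethylene and at 1284 to 1576 CPM in air. Levels are given as CPM, each library's counts scaled to a common size by the TMM method. Tests used the quasi-likelihood model of edgeR, with p-values adjusted by the method of Benjamini and Hochberg over all genes tested, and a gene was called changed at an adjusted p under 0.05. In whole seedlings, fewer cells of a type and less RNA per cell cannot be told apart.

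Upstream sequences are shown for 4 genes that hold a motif of the kind classically found upstream of phenylpropanoid genes and that kept their ethylene calls in both lines in all 13 alternatives. 4CL2 meets this too but is not shown, because most of its window lies in exons of a neighbouring gene, and the calls of C3H1 and TT8, which also hold a motif, did not hold in every alternative. These are the 250 bases before the annotated start, read 5′ to 3′ on the gene's strand from the RefSeq TAIR10.1 genome. The motifs searched, on both strands, were the type I AC element ACCTACC, the type II element ACCAACC, the type III element ACCTAAC, the G-box CACGTG and the EIN3-type site ATGNACCT, and capitals mark the matches. The windows are chr5:19838236-19838485 on the minus strand for HCT, chr4:16388941-16389190 on the minus strand for CAD5, chr4:16310159-16310408 on the plus strand for CCoAOMT1 and chr3:3203738-3203987 on the plus strand for PAL4.
HCT: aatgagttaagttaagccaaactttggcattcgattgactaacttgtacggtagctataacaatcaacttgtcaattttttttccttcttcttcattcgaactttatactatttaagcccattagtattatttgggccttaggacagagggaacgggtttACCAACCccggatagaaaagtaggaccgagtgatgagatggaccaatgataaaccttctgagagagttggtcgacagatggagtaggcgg
CAD5: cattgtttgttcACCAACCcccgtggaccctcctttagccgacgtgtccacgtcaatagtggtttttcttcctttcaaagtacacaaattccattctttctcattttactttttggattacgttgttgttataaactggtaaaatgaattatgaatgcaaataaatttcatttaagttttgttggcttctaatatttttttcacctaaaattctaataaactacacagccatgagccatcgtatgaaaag
CCoAOMT1: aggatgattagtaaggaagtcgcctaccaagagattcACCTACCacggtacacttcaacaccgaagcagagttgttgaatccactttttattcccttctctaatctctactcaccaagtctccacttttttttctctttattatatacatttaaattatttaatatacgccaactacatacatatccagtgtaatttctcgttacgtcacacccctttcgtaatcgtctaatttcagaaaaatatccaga
PAL4: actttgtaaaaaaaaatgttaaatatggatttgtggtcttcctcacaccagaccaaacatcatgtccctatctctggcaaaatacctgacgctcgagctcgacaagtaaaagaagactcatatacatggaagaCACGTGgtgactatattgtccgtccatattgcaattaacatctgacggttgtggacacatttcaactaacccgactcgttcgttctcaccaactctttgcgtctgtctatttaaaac

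The match starts 90 bases before the annotated start of HCT, 238 before that of CAD5, 213 before that of CCoAOMT1 and 117 before that of PAL4. Over all 31 genes, 8 windows (25.8%) held an AC element, against 6.12% of the windows of 27443 protein-coding genes. The 8 genes were 4CL2, 4CL3, TT8, HCT, C3H1, CCoAOMT1, CCR1 and CAD5, so that 5 of the 8 lignin enzymes had one and none of the 9 flavonoid enzymes did. A G-box stood in 5 windows (16.1%), those of PAL4, CHS, F3H, DFR and MYB12, against 6.49% of all windows. The EIN3-type site stood in the PAP1 window alone (3.23% of the 31), against 1.72% of all windows. Of the window of 4CL2, 222 bases lie in exons of the neighbouring gene AT3G21250, of that of CCR1, 53 lie in exons of AT1G15940, and of that of F3H, 82 lie in exons of AT3G51238. These matches are letters in a window and were not tested as binding sites.

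Levels spanned several orders of magnitude, and the lignin and entry enzymes stood at the top. Divided by exon length, CCoAOMT1, a methyltransferase that acts on caffeoyl-CoA, led with a mean of 367 CPM per kb over the 8 libraries (range 309.9 to 409.9). C4H read 121.6 CPM per kb, HCT 114 and PAL1 107, and their ranges over the libraries overlapped, so that the order among them is not set. The range of CCoAOMT1 overlapped no other gene's. The lowest of the main entry genes was 4CL2 at 35.5 CPM per kb. The flavonoid enzymes began with chalcone isomerase (CHI) at 8.90 CPM per kb, UGT78D1 at 6.24, CHS at 5.50 and UGT78D2 at 4.03. TTG1 read 13.4 CPM per kb and the other regulators 1.19 CPM per kb or less. FAH1, the ferulate 5-hydroxylase that leads to sinapate and syringyl lignin, stood low among the lignin enzymes at 3.80 CPM per kb.

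**Figure D1:**
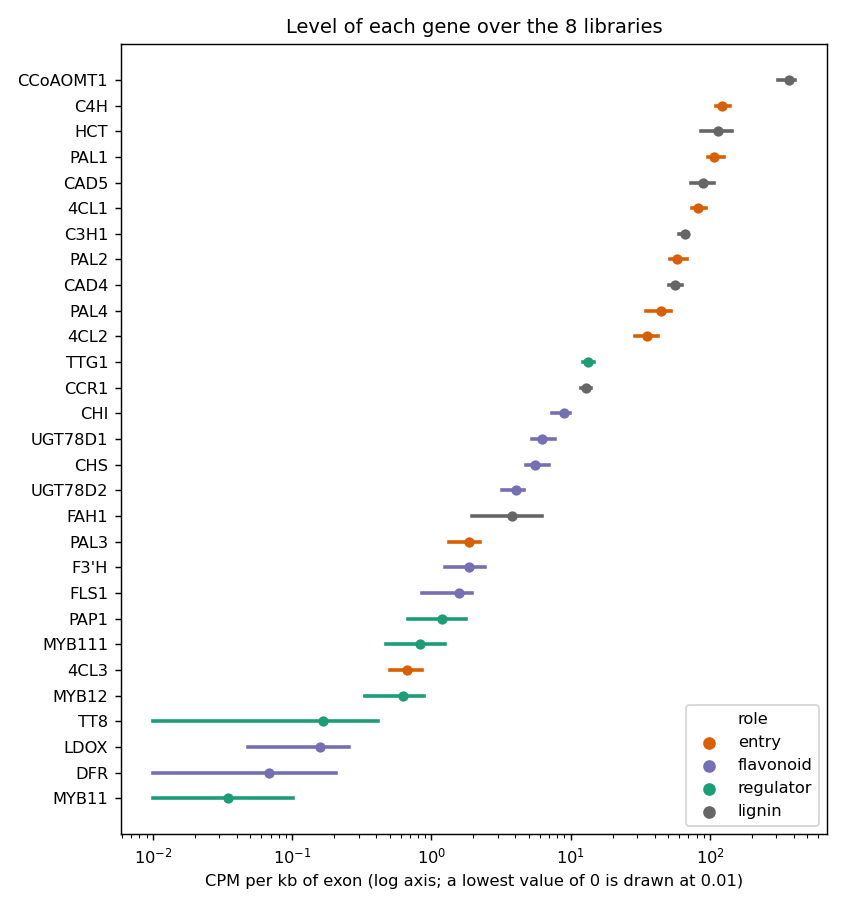
Level of 29 of the 31 genes in CPM per kb of exon on a log axis. Points are means over the 8 libraries, lines run from the lowest to the highest library, and colours give the role. F3H is among those not drawn because all its values are 0. CCoAOMT1 is at the top with a mean of 367 CPM per kb, and the main entry and lignin enzymes stand above the flavonoid enzymes.

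4 genes did not pass the filter. F3H, flavanone 3-hydroxylase (AT3G51240, chromosome 3, 19025192 to 19026872), had 0 counts in every library, but 93.8% of its exonic bases lie under an antisense gene, AT3G51238, and reads over both genes were left out by the authors' counting, so its level is not measured. DFR (AT5G42800), dihydroflavonol reductase, had 0 and 0 counts in e1e2 ethylene, 1 and 4 in e1e2 air, 0 and 1 in e2e3 ethylene and 1 and 5 in e2e3 air. LDOX (AT4G22880), the anthocyanidin synthase that follows DFR, had 1 and 2 counts in e1e2 ethylene, 4 and 4 in e1e2 air, 1 and 2 in e2e3 ethylene and 5 and 6 in e2e3 air. Both anthocyanin-branch enzymes were thus near the limit of detection in all groups, with no more counts in any ethylene library than in the lowest air library of the same line for DFR and with fewer in all for LDOX. The ethylene over air ratio for LDOX was 0.31 in e1e2 (95% interval 0.05 to 1.28) and 0.30 in e2e3 (0.05 to 1.14), exact intervals that cover counting error only. LDOX is also uncertain because 370 bases of it have a copy elsewhere on chromosome 4 at 96.2% identity. MYB11 (AT3G62610) had at most 2 counts in a library.

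The entry enzymes were lower in ethylene in both lines. Of the 8 entry genes, 6 fell in e1e2 and 6 fell in e2e3 (PAL1, PAL2, PAL4, C4H, 4CL1 and 4CL2 in each), and none rose. The falls were small, 1.11- to 1.24-fold in e1e2 and 1.17- to 1.44-fold in e2e3. In the authors' deposited DESeq2 results for e1e2, PAL2, C4H and 4CL1 did not pass (adjusted p = 0.0506, 0.0649 and 0.0516). All 6 genes passed there in e2e3. Of the 27 genes tested, 3 were higher and 9 lower in e1e2, where 39.2% of the 20193 genes were called, 18.3% as higher and 20.9% as lower. In e2e3, 2 were higher and 12 lower, where 44.0% of genes were called, 20.3% as higher and 23.6% as lower. TT8 is 1 of the higher genes in each line, but it passed the filter on low counts only through the e1e2 ethylene libraries. The other higher genes were C3H1 and CCoAOMT1 in e1e2 and CCoAOMT1 in e2e3. The median log2 change over the 27 genes was -0.15 in e1e2 and -0.23 in e2e3, beside 0.01 over all genes tested in each line.

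PAL4 (AT3G10340) fell most among the entry enzymes in e2e3 and, beside 4CL2, in e1e2. It read 115 and 106 CPM in e1e2 ethylene, against 138 and 133 CPM in e1e2 air. It read 99.5 and 95.1 CPM in e2e3 ethylene, against 137 and 142 CPM in e2e3 air. Every ethylene library lay below every air library, and the log2 change was -0.29 ± 0.05 (SE, adjusted p = 3.91e-08, edgeR) in e1e2 and -0.52 ± 0.05 (adjusted p = 1.57e-21, edgeR) in e2e3.

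PAL1 (AT2G37040, chromosome 2, 15557367 to 15560755), the most abundant PAL gene, read 285 and 284 CPM in e1e2 ethylene, against 332 and 305 CPM in e1e2 air. In e2e3 it read 295 and 286 CPM in ethylene, against 349 and 370.1 CPM in air. The groups did not overlap within a line, and PAL1 fell by 0.16 ± 0.04 (log2, SE) in e1e2, and it fell by 0.31 ± 0.04 in e2e3. PAL2 (AT3G53260) read 153 and 148 CPM in e1e2 ethylene, against 179 and 161 CPM in e1e2 air, and 151 and 149 CPM in e2e3 ethylene, against 191 and 196 CPM in e2e3 air. Its values did not overlap either. PAL3 (AT5G04230), a minor gene of the family at 3.47 to 5.80 CPM, did not pass the test in either line. PAL1 held 50.0% and 51.4% of the summed CPM per kb of the 4 PAL genes in e1e2 ethylene, against 49.8% and 49.6% in e1e2 air. PAL4 held 19.1% and 18.8% of that sum in e2e3 ethylene, against 21.2% and 21.0% in e2e3 air.

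C4H (AT2G30490, chromosome 2, 12993625 to 12996012), the single cinnamate hydroxylase of the list, read 239 and 236 CPM in e1e2 ethylene, against 281 and 247 CPM in e1e2 air. In e2e3 it read 232 and 229 CPM in ethylene, against 271 and 292 CPM in air. It was lower in both ethylene libraries of each line and fell by 0.15 ± 0.04 (log2, SE) in e1e2, while it fell by 0.29 ± 0.04 in e2e3. 4CL2 (AT3G21240) read 60.95 and 63.4 CPM in e1e2 ethylene, against 84.0 and 70.8 CPM in e1e2 air, and fell by 0.31 ± 0.06. In e2e3, 4CL2 read 67.3 and 71.3 CPM in ethylene, against 89.1 and 88.5 CPM in air, and fell by 0.36 ± 0.06. 4CL1 (AT1G51680) read 192 and 189.6 CPM in e1e2 ethylene, against 219 and 205 CPM in e1e2 air, and fell by 0.15 ± 0.04. In e2e3, 4CL1 read 197 and 201 CPM in ethylene, against 226 and 238 CPM in air, and fell by 0.23 ± 0.04. 4CL1 and 4CL2 share 110 bases at 93.6% identity, whose reads could be lost or split. 4CL3 (AT1G65060), which is tied to the flavonoid branch, was low at 1.118 to 1.89 CPM and did not pass the test.

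In e1e2, 3 of these falls rested on 1 library. Without replicate 1 of e1e2 in air, the log2 change was -0.10 for PAL2 (adjusted p = 0.114, edgeR), -0.06 for C4H (0.324) and -0.11 for 4CL1 (0.0635), and with scaling by library size alone, C4H and 4CL1 both changed by -0.08 (0.0729 and 0.0813). Without the same library 4CL2 and PAL1 kept their calls, at a smaller log2 change of -0.19 for 4CL2 and -0.10 for PAL1. In that library the summed level of 5 xylem markers was 384.5 CPM, against 331 CPM in its partner. The e2e3 air libraries read 358 and 379 CPM and the ethylene libraries 346 to 355 CPM, so the partner was the lowest. The part of these differences in the results was not tested.

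**Figure D2:**
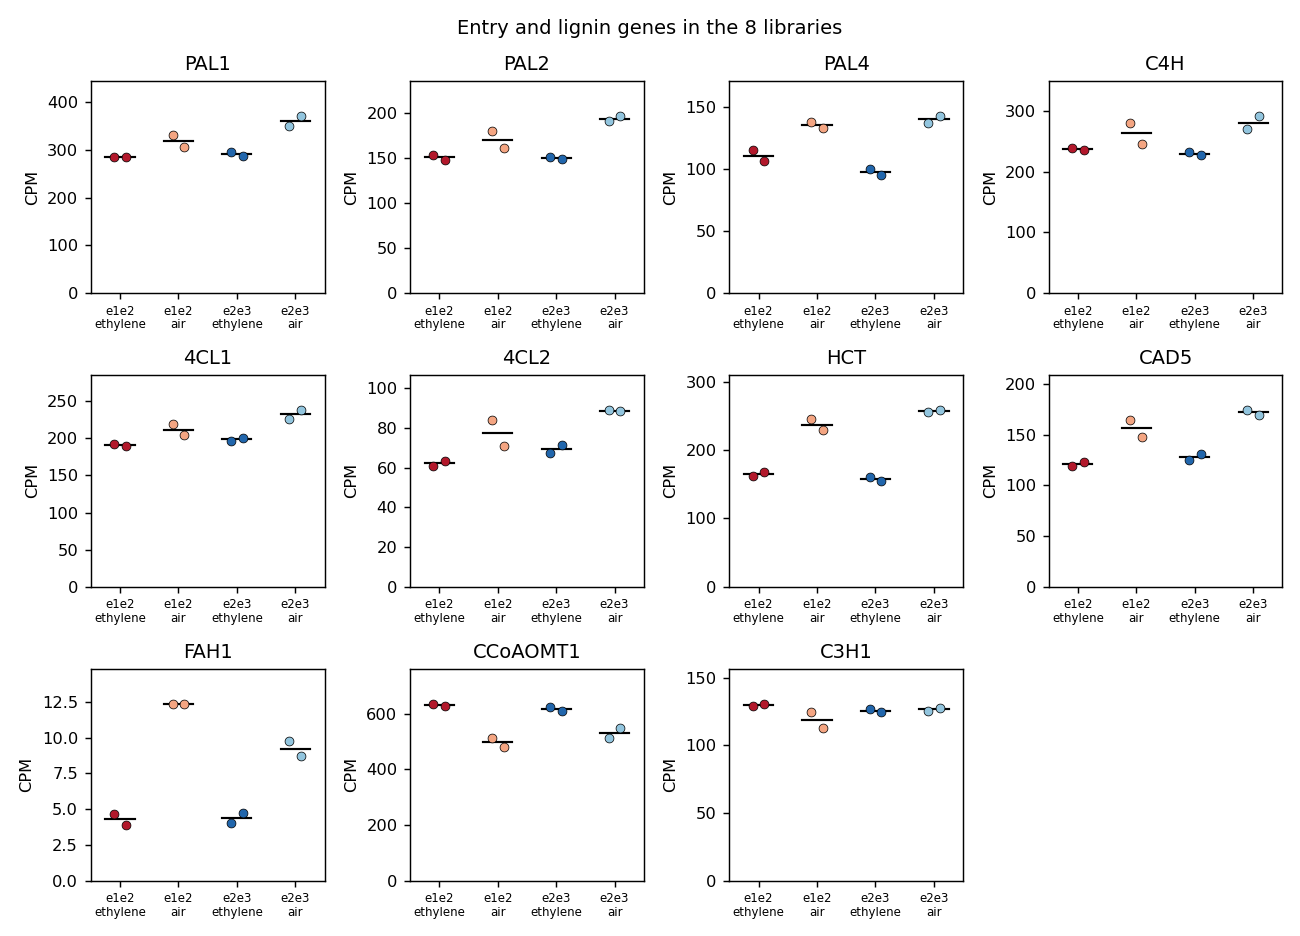
CPM of 11 entry and lignin genes in each of the 8 libraries, with e1e2 in red and e2e3 in blue, ethylene to the left of air in each line. Points are libraries and bars are means of 2, on axes that start at 0. For PAL4 every ethylene library lies below every air library, and for CCoAOMT1 every ethylene library lies above every air library.

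The lignin enzymes did not move as a group. Of 8 tested, 2 were higher and 3 lower in e1e2, beside 18.3% and 20.9% of all genes. In e2e3, 1 was higher and 5 lower, beside 20.3% and 23.6% of all genes. HCT, CAD5 and FAH1 fell in both lines and CCoAOMT1 rose in both. Their median log2 change was -0.03 in e1e2 and -0.13 in e2e3. The summed level of the 8 genes was 910.5 and 916 CPM per kb in e1e2 ethylene, against 912 and 849.6 in e1e2 air, and 903 and 897 in e2e3 ethylene, against 934 and 964 in e2e3 air. The summed level of the entry genes, by comparison, was 414 and 407 CPM per kb in e1e2 ethylene, against 489 and 443 in e1e2 air, and 413 and 409 in e2e3 ethylene, against 499 and 524 in e2e3 air.

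FAH1 (AT4G36220, chromosome 4, 17137313 to 17139777) had the largest fold among the called lignin genes. It read 4.65 and 3.92 CPM in e1e2 ethylene, against 12.4 and 12.4 CPM in e1e2 air. It read 4.05 and 4.73 CPM in e2e3 ethylene, against 9.77 and 8.725 CPM in e2e3 air. All 4 ethylene libraries lay under 5 CPM and all 4 air libraries above 8 CPM. The fall was 2.88-fold in e1e2 (log2 -1.53 ± 0.17, adjusted p = 1.94e-15, edgeR) and 2.09-fold in e2e3 (-1.07 ± 0.17, adjusted p = 2.01e-08, edgeR).

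HCT (AT5G48930, chromosome 5, 19836299 to 19838235), which makes the shikimate ester that C3H1 hydroxylates, read 162 and 168.5 CPM in e1e2 ethylene, against 246 and 229 CPM in e1e2 air. In e2e3 it read 161 and 155 CPM in ethylene, against 256 and 258.5 CPM in air. Every ethylene library lay below every air library, and HCT was 1.44-fold lower in e1e2 (log2 -0.52 ± 0.04, adjusted p = 1.98e-26, edgeR) and 1.63-fold lower in e2e3 (-0.71 ± 0.04, adjusted p = 7.05e-42, edgeR). CAD5 (AT4G34230, chromosome 4, 16386631 to 16388940), a cinnamyl alcohol dehydrogenase that makes the monolignols, read 119 and 123 CPM in e1e2 ethylene, against 164 and 148 CPM in e1e2 air. In e2e3 it read 125 and 131 CPM in ethylene, against 174 and 169 CPM in air. The groups did not overlap, and CAD5 fell by 0.37 ± 0.05 (log2, SE) in e1e2, while it fell by 0.42 ± 0.04 in e2e3. CAD4 (AT3G19450), its partner in lignin synthesis, read 92.4 and 98.7 CPM in e1e2 ethylene, against 98.8 and 98.2 CPM in e1e2 air, and did not pass the test there. In e2e3, CAD4 read 98.1 and 102 CPM in ethylene, against 114 and 111 CPM in air, and fell by 0.16 ± 0.05.

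CCoAOMT1 (AT4G34050, chromosome 4, 16310409 to 16312308) moved the other way. It read 635 and 627 CPM in e1e2 ethylene, against 514 and 480.3 CPM in e1e2 air. It read 625 and 609 CPM in e2e3 ethylene, against 511 and 548 CPM in e2e3 air. Every ethylene library lay above every air library, and the log2 rise was 0.35 ± 0.04 in e1e2 (adjusted p = 1.26e-17, edgeR) and 0.22 ± 0.03 in e2e3 (adjusted p = 1.3e-08, edgeR). C3H1 (AT2G40890), the coumaroyl ester hydroxylase, read 129 and 131 CPM in e1e2 ethylene, against 124 and 113 CPM in e1e2 air, and rose by 0.13 ± 0.05 there, while in e2e3 all 4 libraries lay between 124.6 and 128 CPM. C3H1 shares 70 bases with AT2G40880 on the other strand. The counting used no strand, and reads over both genes were left out. AT2G40880 had 491 and 505 counts in e1e2 ethylene, against 282 and 299 in e1e2 air. In e2e3 it had 526 and 532 counts in ethylene, against 315 and 421 in air. The part of this overlap in the C3H1 values was not tested. CCR1 (AT1G15950), the cinnamoyl-CoA reductase of lignin synthesis, lay between 23.1 and 27.25 CPM and did not pass in either line, and 77.2% of its exonic bases lie under other genes, so its counts come from the rest.

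The smaller of these calls were not stable. The rise of C3H1 in e1e2 ended in DESeq2 (log2 0.13, adjusted p = 0.109) and without replicate 2 of e1e2 in air (log2 0.07), replicate 1 of e1e2 in ethylene (log2 0.14) or replicate 2 of e1e2 in ethylene (log2 0.13). The fall of CAD4 in e2e3 kept its call in 10 of 13 (-0.08 with library size alone) and lost it without replicate 1 of e2e3 in air or in ethylene (-0.13 in each).

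**Figure D3:**
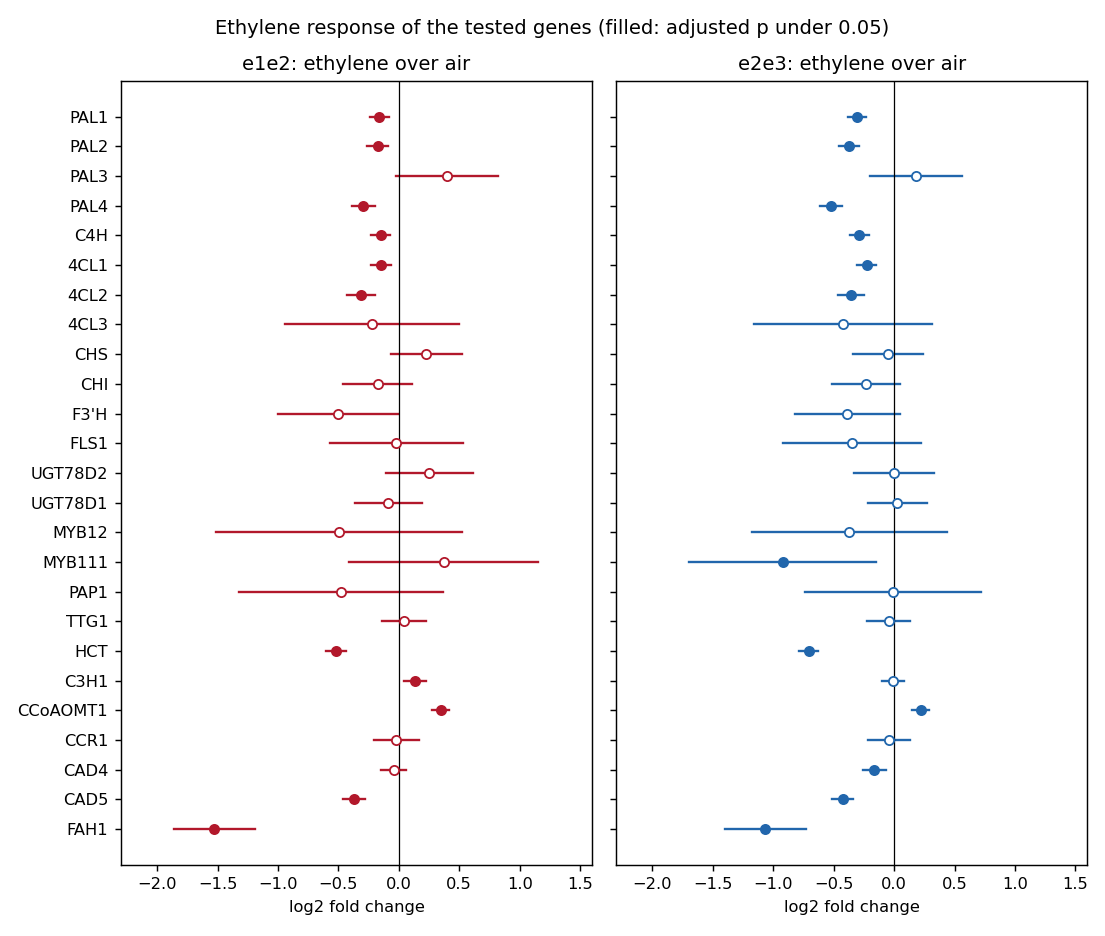
Log2 fold change of ethylene over air for 25 of the 27 tested genes in e1e2 (left) and e2e3 (right), ordered by role. Points are edgeR estimates, filled at an adjusted p under 0.05, and lines are 95% intervals. TT8 is among those not drawn because both its air libraries in e2e3 had 0 counts. FAH1 lies farthest to the left in both lines, at -1.53 and -1.07.

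Markers of the root moved in the same direction as the entry enzymes, HCT and CAD5. PYK10, an abundant root beta-glucosidase, fell by 0.65 ± 0.03 (log2, SE) in e1e2, while it fell by 0.70 ± 0.03 in e2e3. Of 2 tested markers of the root endodermis, CASP5 (-1.04) fell in e1e2, and CASP1 (-0.14) and CASP5 (-1.06) fell in e2e3. The third, ESB1, stayed under the filter at 0.135 to 0.418 CPM. The summed level of the 3 was 309 and 323 CPM in e1e2 ethylene, against 435 and 411 CPM in e1e2 air, and 374 and 371 CPM in e2e3 ethylene, against 524 and 510.0 CPM in e2e3 air. Of 5 xylem markers, 1 fell in e1e2 (CESA7) and 3 fell in e2e3 (CESA4, CESA7 and CESA8), and none rose. Over all genes, 20.9% were called lower in e1e2 and 23.6% in e2e3. The sum of the 5 xylem markers lay between 346 and 355 CPM in ethylene and between 331 and 384.5 CPM in air. The part of these tissues in the changes of the entry and lignin genes was not tested.

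The flavonoid enzymes showed no change that passed the test. Of 9 genes, 6 were tested, and edgeR called none in either line. At an unadjusted p under 0.05, 1 gene was lower in e1e2 (F3'H, flavonoid 3'-hydroxylase) and none in e2e3, beside 23.8% and 26.1% of all genes, and none was higher in either line, beside 22.3% and 23.6%, and DESeq2 called 0 in each. CHS (AT5G13930, chromosome 5, 4488476 to 4490264) read 9.025 and 11.9 CPM in e1e2 ethylene, against 9.10 and 8.745 CPM in e1e2 air. It read 8.73 and 9.12 CPM in e2e3 ethylene, against 8.12 and 10.2 CPM in e2e3 air. The groups overlapped in both lines, and the log2 change was 0.23 (95% interval -0.07 to 0.53) in e1e2 and -0.05 (-0.34 to 0.24) in e2e3.

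CHI (AT3G55120), which closes the ring of the chalcone, read 10.9 and 8.18 CPM in e1e2 ethylene, against 10.5 and 11.03 CPM in e1e2 air, and 8.87 and 8.84 CPM in e2e3 ethylene, against 10.5 and 10.3 CPM in e2e3 air. Its interval was -0.46 to 0.11 in e1e2 and -0.51 to 0.05 in e2e3. F3'H (AT5G07990) read 2.76 and 2.405 CPM in e1e2 ethylene, against 3.71 and 3.62 CPM in e1e2 air, and 3.77 and 3.13 CPM in e2e3 ethylene, against 4.67 and 4.39 CPM in e2e3 air. Its libraries did not overlap within a line, but the change of -0.50 ± 0.25 (log2, SE) in e1e2 and -0.39 ± 0.22 in e2e3 did not pass (adjusted p = 0.108 and 0.15, edgeR). FLS1 (AT5G08640), the main flavonol synthase, read 3.165 and 2.405 CPM in e1e2 ethylene, against 2.83 and 2.84 CPM in e1e2 air, and 2.585 and 1.39 CPM in e2e3 ethylene, against 2.59 and 2.48 CPM in e2e3 air. The flavonol glucosyltransferase UGT78D2 (AT5G17050) lay between 5.20 and 7.42 CPM and the rhamnosyltransferase UGT78D1 (AT1G30530) between 10.1 and 14.8 CPM, with overlapping groups. Changes smaller than these intervals were not detectable at this depth. Of the markers of light exposure, which also induces flavonoid genes, ELIP1 rose by 1.29 in e1e2 and 1.61 in e2e3 and ELIP2 by 1.06 and 1.59 (log2). HY5, an activator of flavonoid genes in light, fell by 0.31 in e1e2 and changed by -0.12 in e2e3 without passing the test. The part of light in the flavonoid values was not tested.

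**Figure D4:**
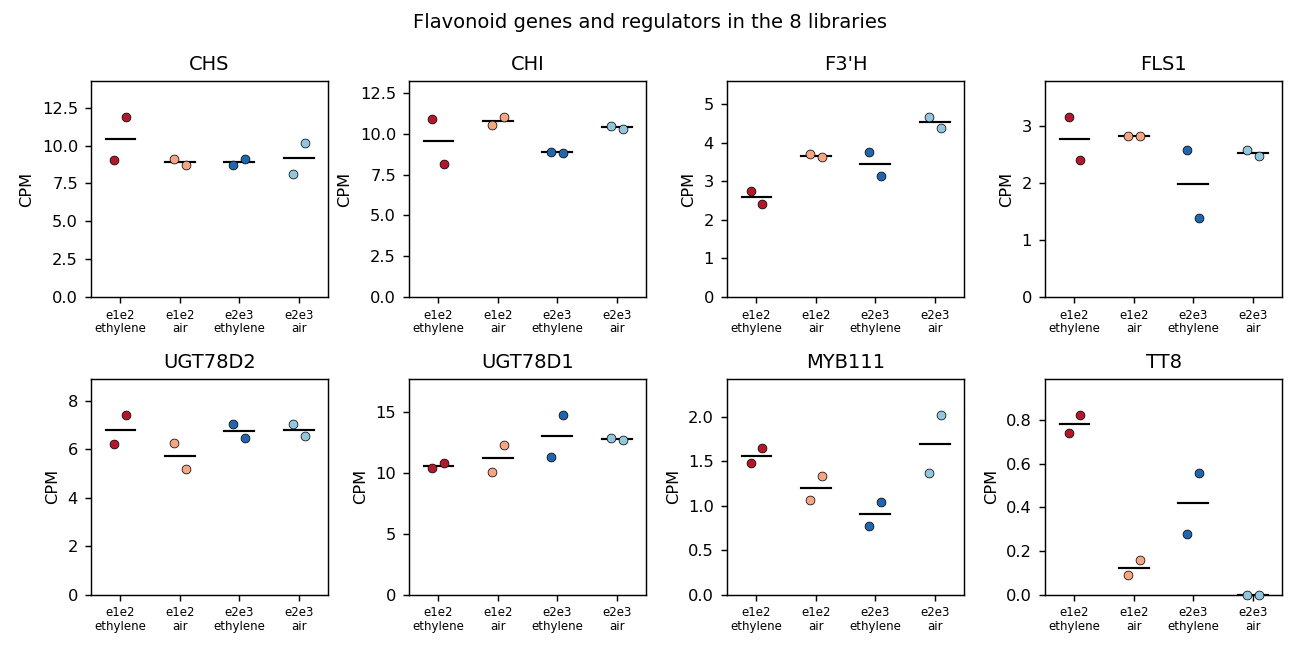
CPM of 6 flavonoid enzymes and of the regulators MYB111 and TT8 in each of the 8 libraries, with e1e2 in red and e2e3 in blue, ethylene to the left of air in each line. Points are libraries, bars are means of 2, and axes start at 0. CHS overlaps between ethylene and air in both lines, and TT8 is above its air libraries in each line.

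Among the regulators, TT8 was higher in ethylene at very few counts, and MYB111 fell in e2e3. Of 5 tested, 1 was higher in e1e2, beside 18.3% of all genes. In e2e3, 1 was higher and 1 lower, beside 20.3% and 23.6% of all genes. TT8 (AT4G09820, chromosome 4, 6181881 to 6186523) had 11 and 12 counts in e1e2 ethylene, against 1 and 2 in e1e2 air, and 4 and 8 counts in e2e3 ethylene, against 0 and 0 in e2e3 air. TT8 passed the filter on low counts only through the e1e2 ethylene libraries, so its calls carry no weight in the counts above, which without it are 2 higher in e1e2 and 1 higher in e2e3. The ratio of ethylene over air was 6.26 in e1e2 (95% interval 1.89 to 32.6, counting error only). In e2e3, TT8 was 4.42-fold higher when set against a floor of 3 counts over the air group. That value leaves out the counting error of the 12 counts in ethylene. In e1e2 the call (adjusted p = 0.0088, edgeR) ended in DESeq2 (0.0939) and without replicate 1 or 2 of e1e2 in air or replicate 2 of e1e2 in ethylene (0.0515 to 0.0879).

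Of 5 genes of the seed coat, where TT8 and its partners act, TT12 had no counts, and BAN and TT2 had counts in at most 2 libraries each. The other two passed the filter, AHA10 at 17 to 39 counts and TT10 at 5 to 12 counts in a library, and their log2 changes of 0.50 and 0.64 in e1e2 and of -0.07 and -0.08 in e2e3 did not pass the test. The 5 markers summed to 2.44 to 3.504 CPM in ethylene and 2.12 to 3.23 CPM in air. MYB111 (AT5G49330) read 1.48 and 1.65 CPM in e1e2 ethylene, against 1.06 and 1.34 CPM in e1e2 air. It read 0.768 and 1.04 CPM in e2e3 ethylene, against 1.365 and 2.03 CPM in e2e3 air. The ethylene libraries lay above air in e1e2 and below air in e2e3, and the test was passed in e2e3 (log2 -0.92 ± 0.39, adjusted p = 0.0461, edgeR) but not in e1e2 (0.37 ± 0.40). The difference between the lines did not pass (-1.30 ± 0.56). The call in e2e3 held in 4 of 13 alternatives and was lost without replicate 2 of e2e3 in air (-0.57), either e2e3 ethylene library or either e1e2 ethylene library. MYB12 (AT2G47460, 0.530 to 1.41 CPM), PAP1 (AT1G56650, 0.756 to 1.95 CPM) and TTG1 (AT5G24520, 23.0 to 27.5 CPM) did not pass in either line. PAP1 shares 130 bases at 93.1% identity with another place on chromosome 1.

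Beyond the 31 genes, 60 other genes of phenylalanine supply, the pathway and its control were listed, of which 40 were tested. In e1e2, 7 were higher and 15 lower, and in e2e3, 5 were higher and 16 lower, with the same percentages of all genes beside them as above. Those with the largest changes in e1e2 were GL3 (-1.39), a bHLH factor that can act in place of TT8, CCR2 (-1.18), the second cinnamoyl-CoA reductase, MYB85 (-1.09), a lignin regulator, and EGL3 (-1.07), a relative of GL3. In e2e3 they were GL3 (-2.13), CCR2 (-1.40), MYBL2 (0.93), a repressor of anthocyanin synthesis, and CAD1 (0.74), of the alcohol dehydrogenase family. GL3 read 0.741 and 1.10 CPM in e1e2 ethylene, against 2.385 and 2.44 CPM in e1e2 air, and 0.559 and 0.626 CPM in e2e3 ethylene, against 2.73 and 2.53 CPM in e2e3 air. CCR2 read 5.39 and 6.39 CPM in e1e2 ethylene, against 13.7 and 13.0 CPM in e1e2 air, and 3.98 and 5.99 CPM in e2e3 ethylene, against 13.2 and 13.1 CPM in e2e3 air. The groups of GL3 and CCR2 did not overlap in either line. MYB85 had few counts, 12 and 12 in e1e2 ethylene, against 22 and 20 in e1e2 air. In e2e3, MYB85 had 22 and 15 counts in ethylene, against 15 and 21 in air, and its groups overlapped. In the authors' deposited DESeq2 results, GL3 did not pass in e1e2 (adjusted p = 0.0765) and passed in e2e3 (0.00204). In all, 6 of the 60 genes lie under a neighbour for over 90% of their exonic length, and none of these was tested.

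Between the lines in air, 4 of the 8 entry enzymes and 4 of the 8 lignin enzymes were higher in e2e3, and FAH1 was lower. Of 27 genes, 8 were higher and 1 was lower in e2e3 than in e1e2, where 14.8% of all genes were called, 9.0% as higher and 5.83% as lower. The 8 included PAL1, PAL2, 4CL1, 4CL2, HCT, CAD4 and CAD5, at 1.09- to 1.15-fold, and the lower one was FAH1. PAL1 read 349 and 370.1 CPM in e2e3 air, against 332 and 305 CPM in e1e2 air (log2 0.18 ± 0.04, adjusted p = 1.02e-04, edgeR). PAL2 read 191 and 196 CPM in e2e3 air, against 179 and 161 CPM in e1e2 air (0.19 ± 0.04). CAD4 read 114 and 111 CPM in e2e3 air, against 98.8 and 98.2 CPM in e1e2 air (0.19 ± 0.05). The libraries of the lines did not overlap for these 3 genes. FAH1 read 9.77 and 8.725 CPM in e2e3 air, against 12.4 and 12.4 CPM in e1e2 air (-0.43 ± 0.15, adjusted p = 0.0316, edgeR).

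These differences depended on the scaling and on single libraries. With library size alone, 4 genes were called higher and in DESeq2 3, and leaving out 1 library gave 2 to 10 higher. Each of these 7 lost its call without at least 1 air library: PAL2, 4CL1, 4CL2, HCT and CAD5 without replicate 2 of e1e2, 4CL2, HCT, CAD4 and CAD5 without replicate 1 of e2e3, and PAL1, 4CL1, 4CL2, HCT and CAD5 without replicate 2 of e2e3. Where a call was lost in this way, the log2 difference lay between 0.06 and 0.19. FAH1 lost its call without replicate 1 (-0.44) or 2 (-0.43) of e1e2 in air or replicate 2 of e2e3 in air (-0.36). DESeq2 gave FAH1 no adjusted p-value in this comparison. The root markers differed in the same direction in air: CASP1 was higher in e2e3 by 0.36, CASP5 by 0.21 and PYK10 by 0.23 (log2), and their part in the result was not tested. Of the 40 other pathway genes tested, 5 were higher and 4 lower in e2e3 air, beside 9.0% higher and 5.83% lower over all genes. The largest were MYBL2 (-0.38), ADT5 (0.29), an arogenate dehydratase of phenylalanine synthesis, SNG1 (-0.28), of sinapoyl malate synthesis, and the peroxidase PRX72 (0.25).

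In ethylene, of 27 genes, none was higher and 1 was lower in e2e3, where 6.56% of all genes were called, 4.24% as higher and 2.32% as lower. At an unadjusted p under 0.05, 2 were higher (UGT78D1 and 4CL2) and 1 was lower (PAL4), beside 10.0% higher and 8.31% lower over all genes. DESeq2 called 0 and gave adjusted p-values for all but 10 of the 27. The lower gene was PAL4, at 99.5 and 95.1 CPM in e2e3 ethylene, against 115 and 106 CPM in e1e2 ethylene (log2 -0.18 ± 0.05, adjusted p = 0.00769, edgeR). Its call ended in DESeq2 (adjusted p = 0.122) and without replicate 1 of e1e2 in ethylene (log2 -0.12, adjusted p = 0.377, edgeR) or replicate 2 of e2e3 in ethylene (-0.15, 0.194). The root markers were higher in e2e3 in ethylene as well, CASP1 by 0.26, CASP5 by 0.18 and PYK10 by 0.17 (log2). Their part in the result was not tested. Of the other pathway genes, 3 were higher and 1 was lower, FLS3 (0.28), PRX72 (0.25), KFB01 (-0.17) and PRX64 (0.15), of which KFB01 is an F-box protein that targets PAL for degradation.

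The difference between the lines in the response to ethylene was called for 1 gene of 27 (3.70%), PAL4, a share near the 2.80% of all genes called, 1.54% as higher and 1.27% as lower. It shares its air libraries with the comparison of the lines in air, where they enter with the opposite sign. The log2 response of PAL4 in e2e3 minus that in e1e2 was -0.23 ± 0.07 (SE, adjusted p = 0.0363, edgeR). At an unadjusted p under 0.05, 9 were lower (33.3%) and 0 higher, beside 7.48% lower and 6.58% higher over all genes, and DESeq2 called 0 with adjusted p-values for 12 of the 27. Without replicate 1 of e1e2 in air, 6 genes (22.2%) were called with a lower response in e2e3, beside 0.947% of all genes, and none with a higher one, beside 1.70%. The genes with a lower response in that fit included PAL1 (-0.19), PAL2 (-0.25), PAL4, C4H (-0.21) and HCT (-0.21). Apart from PAL4, no gene of the 27 was called for this difference in any other fit. That fit gave the largest values from leaving out 1 library for PAL1, PAL2, C4H and HCT. The smallest were -0.08 for PAL1, -0.12 for PAL2, -0.05 for C4H and -0.13 for HCT. The PAL4 call held without replicate 1 of e1e2 in air, replicate 2 of e1e2 in ethylene or replicate 1 of e2e3 in ethylene, was lost without each of the other 5 libraries, and was lost in the 4 other alternatives. Of the other pathway genes, ADT5 alone passed (-0.30).

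The authors' deposited table of genes called in wild type gives a view of genes that a wild-type seedling changes by 2-fold or more. That table lists 1242 genes, of which 735 are lower with ethylene in wild type. It holds 6 of the 31 (19.4%), beside 3.38% of all genes in the count tables, filtered or not. Of the 20193 genes tested here, 1190 are in it with all 3 values. All 6 genes of the set are lower with ethylene in wild type. In the authors' deposited table, CHS changed by 0.23 (log2) in e1e2 and -0.04 in e2e3, against -1.998 in wild type. In the same authors' deposited table, FLS1 changed by -0.02 and -0.34 in e1e2 and e2e3, against -1.35 in wild type. There 4CL3 changed by -0.22 and -0.42 in e1e2 and e2e3, against -1.50 in wild type, per the authors' deposited table. CHI changed by -0.18 and -0.23, against -1.001 in wild type, and MYB111 by 0.38 and -0.91, against -1.35, in the authors' deposited table. FAH1 changed by -1.53 in e1e2 and -1.07 in e2e3, against -1.09 in wild type, in the authors' deposited table.

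In the mutant columns of the authors' deposited table, 1 of the 6 (FAH1) was past 2-fold in the wild-type direction in e1e2 and 1 (FAH1) in e2e3, against 50.2% and 50.9% of its 1240 genes with all 3 values. By edgeR on the counts, 1 of the 6 was called in the wild-type direction in e1e2 (FAH1) and 2 in e2e3 (FAH1 and MYB111). Of the 1190 tested genes of the authors' deposited table, 76.6% were called in the wild-type direction in e1e2 and 77.0% in e2e3. Depth limits the calls of 4CL3 (16 to 28 counts in a library), MYB111 (11 to 36) and FLS1 (20 to 47). In the authors' deposited DESeq2 results, MYB111 did not pass in e2e3 (adjusted p = 0.327). The wild-type genes were selected on their own change and no wild-type library was analysed here, so the difference between mutants and wild type was not tested. The authors' deposited table also holds 2 of the other pathway genes, named here after their values were seen: CHIL, a chalcone isomerase-like protein, at -0.04 and -0.32 in e1e2 and e2e3, against -1.20 in wild type, and the laccase LAC11 at 0.24 and 0.00, against -1.16. None of the entry or lignin enzymes that fell in both lines, other than FAH1, is in it. Their falls in the mutants were 1.63-fold or less, and a fall of that size in wild type would not enter this table. Their absence therefore does not tell whether wild type lowers them.

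**Figure D5:**
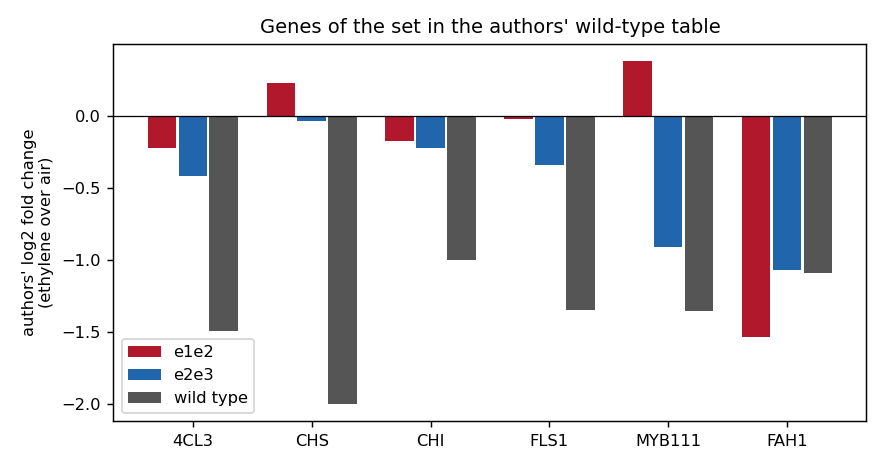
Log2 fold change of ethylene over air from the authors' deposited table for the 6 listed genes of the set, in e1e2 (red), e2e3 (blue) and wild type (grey). Bars start at 0 and carry no error because the table gives none for wild type. CHS shows 0.23 and -0.04 in the mutants beside -1.998 in wild type, and FAH1 -1.53 and -1.07 beside -1.09.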

How the data were processed

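RNA-seq counts of 8 libraries were analysed. The authors deposited raw gene counts made with featureCounts 2.0.1 on Araport11 genes, counting read pairs without regard to strand, per the file headers. Reads over several genes or places were left out by its defaults. STAR, Trim Galore, FastQC, DESeq2 and the TAIR10 build appear in the submitters' processing notes. The authors' deposited DESeq2 tables give log2 fold changes, mean signal, a Wald score and p-values per line, and another deposited table gives log2 changes in wild type. The DESeq2 version and design are not given in the sources used.

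Counts entered edgeR 4.0.16 under R 4.3.3 (TMM, default expression filter by group, robust quasi-likelihood fit of 4 groups and 5 contrasts, 4 residual degrees of freedom), after testing on simulated data. The spread is mostly shared across genes (median prior of 218 degrees of freedom). P-values were adjusted over 20193 genes. Each SE was the absolute log2 change divided by the square root of the F statistic of its test. The 95% intervals of log2 changes use this SE with a normal multiplier. Scaling by library size alone, no expression filter, a replicate block, the libraries of a line alone, leaving out each library and DESeq2 1.42.0 were alternatives. Low counts got exact binomial intervals (95%) and a floor of 3 counts. Copies were sought with blastn 2.17.0 (at least 100 bases, 90% identity). All 31 genes have the same span in the count tables (TAIR10) and in RefSeq TAIR10.1. The members and lists were chosen with earlier results of these data known. Counts, medians and sums over the genes cover all 31, but 1 of them is not reported here by itself, and 1 root marker was left out. Any of the 31 genes could be named under the rule for names, and of the 60 others the 4 with the largest change among those called in each contrast.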

Additional observations from a re-analysis of the deposited data

Results flagged for a closer look

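PAL4 was marked because the test of the difference between the lines' ethylene responses passed. The log2 response in e2e3 minus that in e1e2 was -0.23 ± 0.07 (SE, adjusted p = 0.0363, edgeR), and PAL4 was lower in ethylene in 2 of 2 libraries of each line. Its adjusted p in the alternatives that gave no call ran from 0.0535 to 0.4.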

How the results depend on the processing

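Counts of the 27 genes, TT8 included. In the ethylene response of e1e2, 3 higher and 9 lower, DESeq2 gave 1 higher, and leaving out 1 library gave 1 to 3 higher and 6 to 9 lower. In e2e3, 2 higher and 12 lower, the libraries of that line alone gave 1 higher, where TT8 was not tested, and leaving out 1 library gave 9 to 12 lower. For the difference of the responses, 1 lower, library size alone, no expression filter, the replicate block and DESeq2 each gave 0, and leaving out 1 library gave 0 to 6. For the lines in air, 8 higher and 1 lower, library size alone gave 4 higher and DESeq2 3 higher and 0 lower, and leaving out 1 library gave 2 to 10 higher and 0 to 1 lower. For the lines in ethylene, 1 lower, DESeq2 gave 0 and leaving out 1 library gave 0 to 1. The cause was not tested. In each comparison of the lines, DESeq2 gave no adjusted p-value for 10 of the 27 genes, and FAH1 in air was among them. Over all genes, DESeq2 called 226 against 566 for the difference, 1507 against 2995 in air and 580 against 1325 in ethylene, and leaving out 1 library gave 240 to 545, 1952 to 2936 and 638 to 1586.

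Leaving out 1 library turned the sign of CHI in e1e2 (-0.40 to 0.020), FLS1 in e1e2 (-0.24 to 0.16), CHS in e2e3 (-0.17 to 0.16) and FLS1 in e2e3 (-0.85 to 0.034), and library size alone turned FLS1 in e1e2 (0.044) and CHS in e2e3 (0.032), none of them called. Library size alone moved the median of all genes by 0.07 (e1e2), 0.08 (e2e3) and -0.05 (lines in air). PAL1, PAL4, 4CL2, HCT, CAD5, FAH1 and CCoAOMT1 kept their ethylene calls in all 13 alternatives in both lines. In the ethylene responses, 14 genes in e1e2 and 13 in e2e3 were called in no fit. The deviations of same-numbered libraries from their group means, over all genes tested, had correlations of -0.03 to 0.0009. No replicate effect shared by most genes was seen, but such values cannot exclude a pairing that touches some genes. With the replicate block the counts were 3 higher and 9 lower in e1e2, 2 and 11 in e2e3, 7 and 1 in air, and 0 and 1 in ethylene. Depth limits what could be seen for DFR, LDOX, MYB11, MYB12, MYB111, PAP1 and TT8, which had few counts in every library.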
